A study of Panonychus citri with 16 samples.

Results

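In the citrus red mite Panonychus citri, 200 of 17682 assembled contigs were selected as those whose level differed most between pools of the same population. PolyA RNA of whole adult females was sequenced from 4 Iranian populations, with 4 libraries from separate pools of 100 to 130 mites in each. All mites had been kept on lemon leaves under the same controlled conditions. Rasht is susceptible to fenpyroximate, an acaricide acting on mitochondrial complex I, Lahijan is moderately resistant, and Ramsar and Sari are highly resistant. No acaricide exposure of the sequenced mites is given in the labels. The resistance level and the population cannot be told apart, because each population stands for its level.

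The contigs were chosen from their deposited TPM values, a relative abundance corrected for length that has the same sum in each library. Contigs with a mean of at least 5 TPM over the 12 Lahijan, Ramsar and Sari libraries were kept, and the 200 with the highest median TPM over 15 libraries (all but Rasht replicate 2) were set aside, which left 8357. For each of these the standard deviation (SD) of log2(TPM + 1) over the 4 pools was taken in Lahijan, Ramsar and Sari and averaged, and the 200 with the highest average SD are the variable contigs described here. Their large spread in those 12 libraries is how they were chosen, and it carries no test. The Rasht libraries did not enter these SDs.

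A pool of whole females mixes the RNA of gut, epidermis, nervous system, silk glands and ovaries with that of developing eggs, and of any microbe or virus whose RNA is captured. The level of a transcript in such a pool depends on how much of each tissue and stage the pool holds as well as on the activity of the gene, and fewer cells of a type and less RNA per cell cannot be told apart. Transcripts that come from one tissue, one physiological state or one gene tend to go up and down together across pools, which is why co-variation is used to group genes whose function is unknown. Each identifier here is a population name followed by a number. Of the 17682, 0 matched the RefSeq gene table of this species, so no function is given, the variable contigs are described by their levels, and the tissue label could not be checked against marker genes.

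The libraries held 9154459 to 16595528 estimated counts. Rasht replicate 2 stood apart: 29.9% of all contigs were listed at 0 TPM in it, against 10.1% to 15.8% in the other 15 libraries, and 30 of the 200 variable contigs were listed at 0 there, against 0 to 9 in each of the others. Rasht values are therefore given for replicates 1, 3 and 4, with replicate 2 beside them. The replicates are labelled biological, but whether the pools came from separate rearings is not given, so p-values measure the spread between these libraries.

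The average SD of the variable contigs ran from 0.56 to 3.46 on the log2(TPM + 1) scale, with a median of 0.74, where the median over all 8357 contigs was 0.16. A contig at the median of the 200 thus moved by a factor of 1.67 per SD, and the median contig of all by 1.11. Among the contigs so chosen, an SD in the top 10% of all contigs was seldom confined to a single population. As the choice used these same SDs, the counts that follow describe it and carry no test. In Lahijan 179, in Ramsar 189 and in Sari 185 of the 200 had an SD in the top 10% of all 8357, and 155 did so in all 3 populations. The largest of the 3 SDs was in Ramsar for 96 contigs, in Lahijan for 56 and in Sari for 48. Over all 8357 contigs, Ramsar had the largest SD in 48.9%. Only Lahi_contig_6424 and Lahi_contig_7501, named after their values were seen, reached the top 10% in 1 population. Lahi_contig_6424 was near 0 in Lahijan replicate 2 and stood at 7.38 to 8.75 TPM in the other 3 Lahijan pools, and Lahi_contig_7501 was near 0 in Sari replicate 3 and at 5.15 to 9.75 TPM in the other 3 Sari pools.

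At the limit of the choice the values ran on without a step. Rasht_contig_2736 and Rasht_contig_15558 were the last inside, both with an average SD of 0.558. Sari_contig_9228 and Lahi_contig_2599 were the first outside, with 0.558 and 0.557. Rasht_contig_15558 stood at 10.7, 6.99, 14 and 20.2 TPM in Lahijan replicates 1 to 4, with the fourth pool well above the second. Of the 200 most abundant contigs that had been set aside, 2 had an average SD above the limit. These were Rasht_contig_37 at 0.61, with 54.6 to 215 TPM among the Sari pools, and Ramsar_contig_575 at 0.59, with 637 to 1793 TPM among the Ramsar pools.

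The spread can be read in Rasht, whose pools the SDs did not use. Over Rasht replicates 1, 3 and 4 the variable contigs had a median SD of 0.79, against 0.18 for all 8357. Of the 200, 152 (76%) lay in the top 10% of all contigs (an SD of at least 0.42), beside a background of 10% by definition. Above the all-contig median were 189. Without Rasht replicate 1 the count in the top 10% was 105, without replicate 3 it was 132 and without replicate 4 it was 129. With Rasht replicate 2 added, 82 of the 200 lay in the top 10%, where the median SD was 1.12 for the variable contigs and 0.62 for all.

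**Figure D1:**
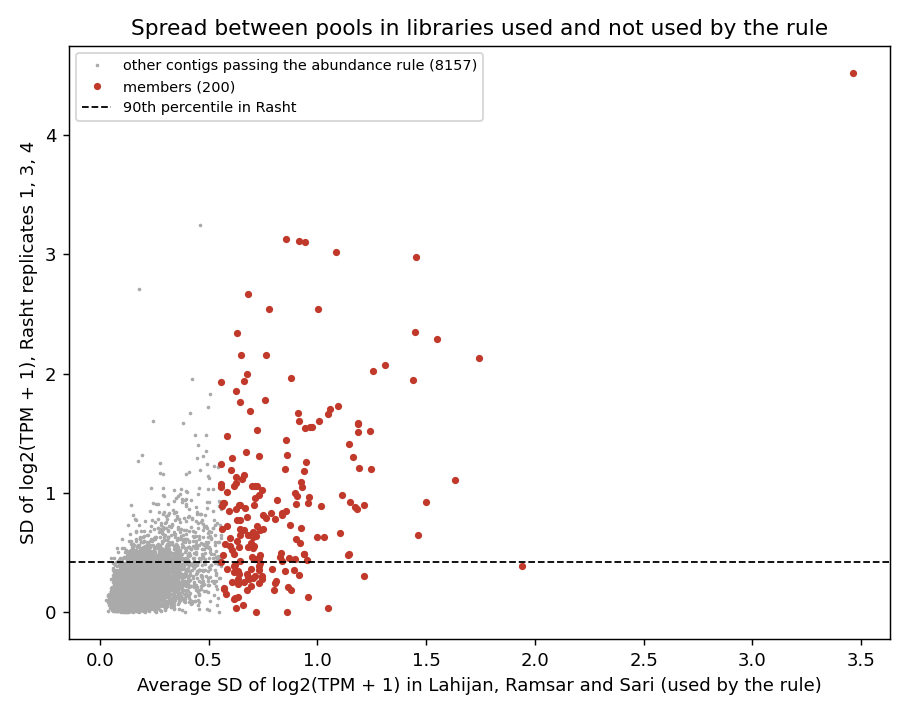
SD of log2(TPM + 1) over Rasht replicates 1, 3 and 4 (vertical axis, not used in the choice) against the average SD in Lahijan, Ramsar and Sari (horizontal axis, used in the choice). Each point is a contig, red for the 200 variable contigs and grey for the other 8157, and 152 red points lie at or above the dashed 90th percentile of Rasht.

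The same reading was made within the 3 populations by choosing 200 contigs on a pair of them and looking in the population left out. Contigs chosen on Ramsar and Sari lay in the top 10% of Lahijan in 159 of 200 cases, again against a background of 10%. Their median SD in Lahijan was 0.60, against 0.15 for all 8530 contigs whose mean over the Ramsar and Sari libraries passed the abundance limit. Contigs chosen on Lahijan and Sari did so in Ramsar in 155 cases, with a median SD of 0.57 against 0.18. Contigs chosen on Lahijan and Ramsar did so in Sari in 166 cases, with a median SD of 0.55 against 0.13. A contig that varied between pools of some populations thus mostly varied between pools of another.

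To see which contigs rose together, each value was set against the mean of its own population, and the resulting deviations were correlated between contigs over the 12 libraries. Contigs were joined by average linkage wherever the mean correlation was at least 0.6. This gave 49 clusters. The 5 largest are called groups A to E here and held 89 of the 200 contigs, with 40, 16, 15, 12 and 6 contigs (the fifth place was a tie in size, given to the group with the larger spread). Another 10 contigs joined no other. Between contigs of groups A to E the median correlation was 0.74, 0.78, 0.89, 0.80 and 0.89, and the lowest was 0.17, 0.40, 0.61, 0.24 and 0.79. Lahi_contig_7501, placed in group A, correlated at r = 0.59 with the rest of it. Over all 19900 pairs the median correlation was 0.00, but 199 pairs reached at least 0.9 and 210 pairs were at -0.8 or below. As the groups were built from these values, their co-variation in the 12 libraries is a description. What each did in Rasht replicates 1, 3 and 4 was not used to build them.

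**Figure D2:**
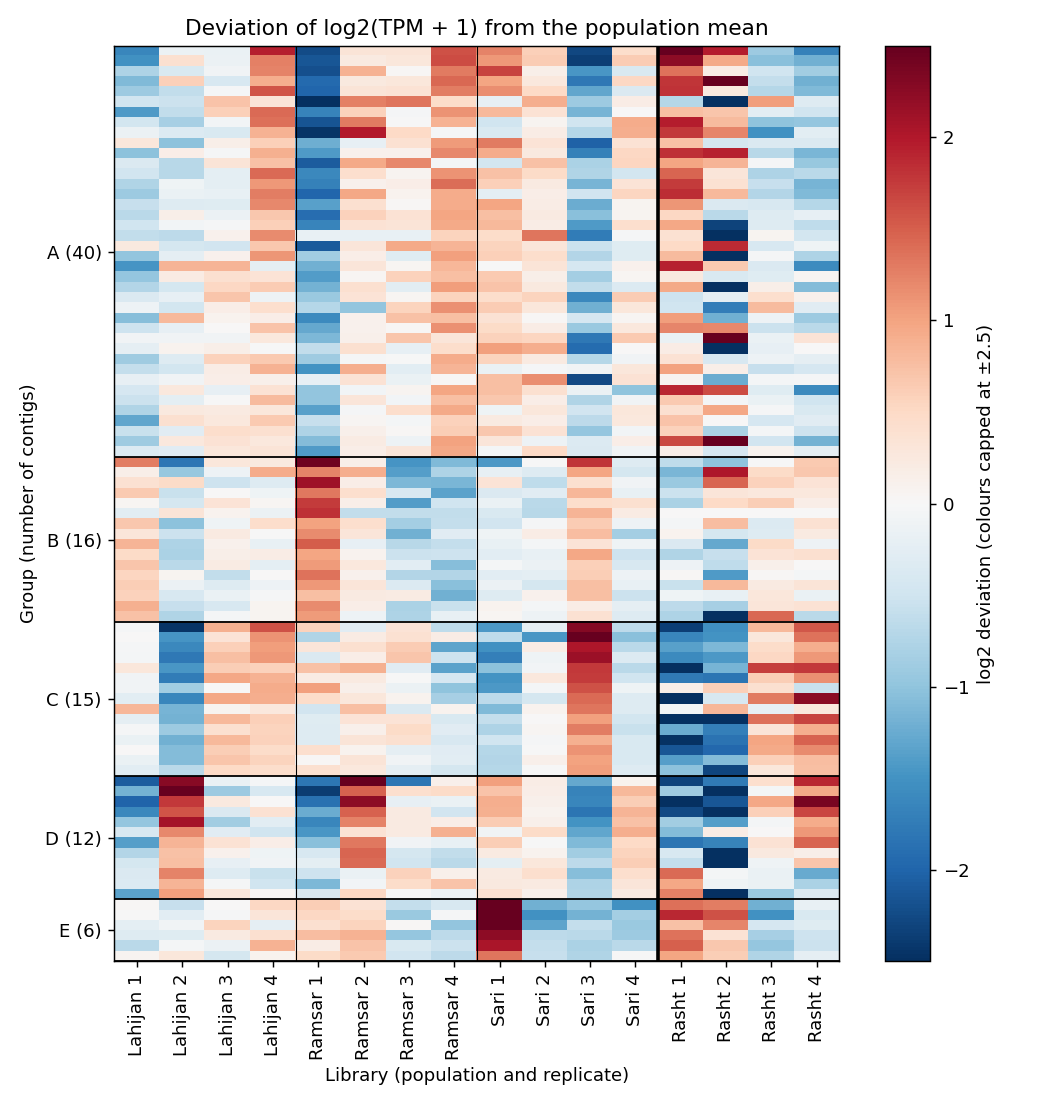
Deviation of log2(TPM + 1) from the mean of its population, in colour, for the 89 contigs of groups A to E (rows) in the 16 libraries (columns). Rasht, right of the thick line, is centred on replicates 1, 3 and 4 and did not enter the grouping; the 40 contigs of group A are low in Ramsar 1 and Sari 3 and mostly high in Rasht 1.

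Group A, with 40 contigs, was low in Ramsar replicate 1, Sari replicate 3 and Lahijan replicate 1 and high in Ramsar replicate 4, Lahijan replicate 4 and Sari replicate 1. Ramsar replicate 1 was the lowest Ramsar pool for 38 of the 40 and Sari replicate 3 the lowest Sari pool for 38. Lahijan replicate 4 was the highest Lahijan pool for 31 and Ramsar replicate 4 the highest Ramsar pool for 31. The mean deviation was -1.44 log2 units in Ramsar replicate 1 and 0.88 in Ramsar replicate 4, and the summed level of the group was 1405 and 12218 TPM in these pools. In Sari the mean deviation was -1.07 in replicate 3, where the other pools were at 0.16 to 0.53. The lowest and the highest pool of the group held 10426766 and 12567164 estimated counts in Lahijan, 12866773 and 12506414 in Ramsar, and 13773146 and 13665805 in Sari, and the part of depth in this order was not tested.

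Ramsar_contig_349, the most abundant of the variable contigs, showed this order of pools. It stood at 307, 1588, 1663 and 4244 TPM in Ramsar replicates 1 to 4, at 153, 581, 394 and 1044 TPM in Lahijan and at 787, 574, 71.2 and 574 TPM in Sari. Rasht_contig_1119 had the same order of pools in Ramsar to within a tie, with 75, 451, 450 and 1085 TPM, and 200, 128, 16.4 and 114 TPM in Sari. Its counts were whole in all libraries, so no sharing of reads with another contig is visible for it. Ramsar_contig_1000 followed the rest of the group most closely (r = 0.98 over the 12 libraries) with 138, 364, 342 and 744 TPM in Ramsar, and Sari_contig_2330, a weaker contig, had 5.28, 24.4, 23.7 and 37 TPM there. For all 4 of these contigs the lowest Ramsar pool was replicate 1 and the highest replicate 4. The grouping had placed them together by these same values, so the shared order is a description.

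In Rasht, 36 of the 40 contigs of group A were highest in replicate 1 of replicates 1, 3 and 4, where 31.2% of all contigs had their highest value. Rasht_contig_1119 stood at 243, 20.3 and 11.4 TPM in these pools and Ramsar_contig_349 at 2284, 233 and 209 TPM. In Rasht replicate 2 they held 156 and 928 TPM, and with that library included 31 of the 40 were still highest in replicate 1. The group extended beyond the 200: another 290 of the 8157 other contigs (3.56%) correlated at 0.8 or more with its mean profile, with a median average SD of 0.17. Of these 290, 224 were highest in Rasht replicate 1. Of the 200 most abundant contigs set aside, 27 followed the profile.

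Group B, with 16 contigs, ran nearly opposite to group A. Ramsar replicate 1 and Sari replicate 3, the lowest pools of group A, were the highest for all 16 contigs of group B, and Lahijan replicate 1 was the highest Lahijan pool for 12. The mean profiles of the groups correlated at r = -0.81 over the 12 libraries, which share their pools and the fixed sum of TPM. Lahi_contig_290 stood at 193, 38.9, 12 and 15.8 TPM in Ramsar replicates 1 to 4 and at 11.4, 32.4, 115 and 26.2 TPM in Sari. Rasht_contig_8744 had 216, 116, 65.7 and 33.6 TPM in Ramsar and 89.6, 94, 206 and 101 TPM in Sari. Rasht_contig_706 had 19.3, 9.84, 6.03 and 6.14 TPM in Ramsar. Replicate 1 was the highest Ramsar pool for each of these contigs, which the grouping had placed together by these same values.

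In Rasht, replicate 1, which was the highest pool for most of group A, was the highest of replicates 1, 3 and 4 for 0 of the 16 contigs of group B and the lowest for 11, where 38.9% of all contigs were lowest there. The highest value was in replicate 3 for 8 (background 45.2%) and in replicate 4 for 7 (23.5%). Rasht_contig_8744 stood at 88.8, 155 and 154 TPM in Rasht replicates 1, 3 and 4, and at 159 TPM in replicate 2. Over the 12 libraries the most negative correlation among all pairs, r = -0.99, was between Rasht_contig_5000 of group B and Rasht_contig_8446 of group A. Rasht_contig_5000 stood at 39.3, 11.3, 7.74 and 8.43 TPM in Ramsar replicates 1 to 4, where Rasht_contig_8446 stood at 28.2, 94.6, 146 and 147 TPM. Their sum ran from 67.6 to 156 TPM among the Ramsar pools. In Rasht replicates 1, 3 and 4 Rasht_contig_5000 stood at 6.59, 12.6 and 7.95 TPM and Rasht_contig_8446 at 102, 45.2 and 25.8 TPM. Both were lower in replicate 4 than in replicate 3, so the opposite order did not hold throughout Rasht. In Rasht replicate 2 they were at 2.995 and 20.95 TPM.

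**Figure D3:**
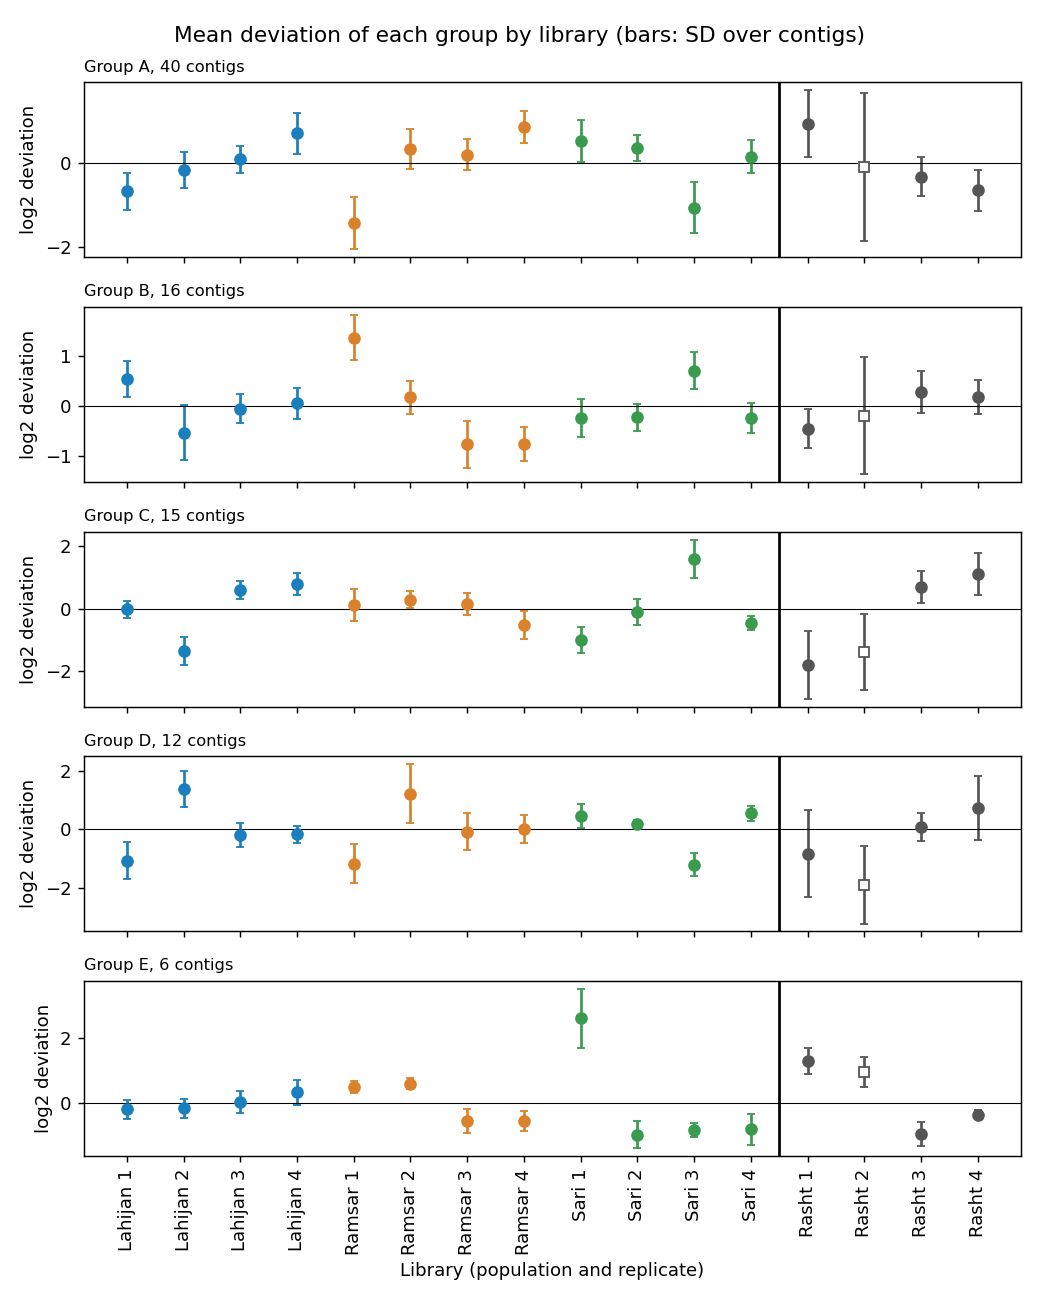
Mean deviation of log2(TPM + 1) from the population mean for groups A to E in each library, with the SD over the contigs of the group as bars. Rasht, right of the line, is centred on replicates 1, 3 and 4, and the open square is Rasht replicate 2. Groups A and B mirror each other in Ramsar 1 and Sari 3, and group E rises in Sari 1.

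Group C held 15 contigs that were more abundant, with a median of 87.1 TPM. Sari replicate 3 was the highest Sari pool for 15 of 15, Lahijan replicate 2 the lowest Lahijan pool for 15 of 15 and Sari replicate 1 the lowest Sari pool for 14. The mean deviation was 1.59 in Sari replicate 3 and -1.36 in Lahijan replicate 2, while the Ramsar pools ran from -0.52 to 0.28. The summed level in Sari was 2098, 3770, 10698 and 2863 TPM in replicates 1 to 4. Its most abundant contig, Sari_contig_469, had 241, 781, 2802 and 430 TPM. Lahi_contig_241, which followed the rest of the group most closely (r = 0.98), stood at 31.2, 108, 304 and 63.2 TPM in Sari and 73.1, 22.5, 153 and 144 TPM in Lahijan. Lahi_contig_753 had whole counts throughout and stood at 39.7, 72.6, 134 and 50.7 TPM in Sari. Rasht_contig_1266, at 692, 1130, 2347 and 915 TPM in Sari, was the third most abundant of the 200.

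In Rasht, 14 of the 15 contigs of group C were highest in replicate 4 of replicates 1, 3 and 4, where 23.5% of all contigs were highest, and 13 were lowest in replicate 1. Sari_contig_469 stood at 215, 764 and 1043 TPM in these pools and Lahi_contig_241 at 2.07, 15 and 22.1 TPM. Rasht replicate 2 was low for the group as well, with 253 and 1.93 TPM of these contigs. Over the 12 libraries the mean profile of group C correlated at r = -0.32 with that of group A, at 0.50 with that of group B and at -0.61 with that of group D.

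Group D held 12 contigs that were high in Lahijan replicate 2 and Ramsar replicate 2 and low in Sari replicate 3. Lahijan replicate 2 was the highest Lahijan pool for 12 of 12, Ramsar replicate 2 the highest Ramsar pool for 9, and Sari replicate 3 the lowest Sari pool for 12 of 12. Rasht_contig_2310 stood at 18.9, 253, 23.2 and 33.3 TPM in Lahijan replicates 1 to 4 and at 18.1, 273, 131 and 136 TPM in Ramsar. Ramsar_contig_5506 had 10.8, 159, 54.5 and 46.3 TPM in Lahijan and 10.1, 187, 34 and 34.6 TPM in Ramsar. Ramsar_contig_1808 had 9.84, 88.1, 10.6 and 16.6 TPM in Lahijan, and Sari_contig_1710 had 2.36, 29.6, 6.99 and 12.3 TPM. Replicate 2 was the highest Lahijan pool and replicate 1 the lowest for each of the 4, which the grouping had placed together by these same values. The mean profile of group D correlated at r = 0.62 with that of group A and at -0.65 with that of group B over the 12 libraries. All 4 contigs had fractional counts, the mark of reads shared with another contig, as did 9 of the 12.

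In Rasht, 8 of the 12 contigs of group D were highest in replicate 4 of replicates 1, 3 and 4 (23.5% of all contigs), 3 in replicate 1 and 1 in replicate 3, and 9 were lowest in replicate 1 (38.9% of all contigs). Ramsar_contig_5506 stood at 4.85, 115 and 307 TPM in Rasht replicates 1, 3 and 4, and at 12.5 TPM in replicate 2. The 60 other contigs that followed the group's profile in the 12 libraries did not share that order, since 40 of them were highest in Rasht replicate 1. Lahi_contig_7619, the third most variable contig of all, belonged to this group and stood at 0, 19.3, 2.75 and 3.13 TPM in Lahijan and 0.000146, 38.2, 0 and 2.80 TPM in Ramsar. Without Lahijan replicate 2, only 7 of the 12 contigs still fell in one cluster.

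Group E was small and rested mostly on a single library. Its 6 contigs were all highest in Sari replicate 1, with a mean deviation of 2.62 log2 units, where the other 3 Sari pools were at -0.98 to -0.81. Ramsar_contig_7213 stood at 176, 5.06, 6.06 and 3.87 TPM in Sari replicates 1 to 4, Ramsar_contig_12226 at 228, 5.81, 7.60 and 9.84 TPM and Sari_contig_4366 at 210, 27.4, 27.1 and 23 TPM. Outside Sari replicate 1 the 6 contigs were weak, with medians of 4.03 to 10.5 TPM in the Lahijan, Ramsar and other Sari pools. Without Sari replicate 1, 3 of the 6 still fell in one cluster. In Rasht all 6 were highest in replicate 1 and lowest in replicate 3 of replicates 1, 3 and 4, and the share of all contigs was 31.2% and 14.9% for these. Sari_contig_4366 stood at 60, 12.4 and 15.6 TPM in these pools, and at 29.7 TPM in replicate 2. Only 3 of the 8157 other contigs followed the profile of group E.

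**Figure D4:**
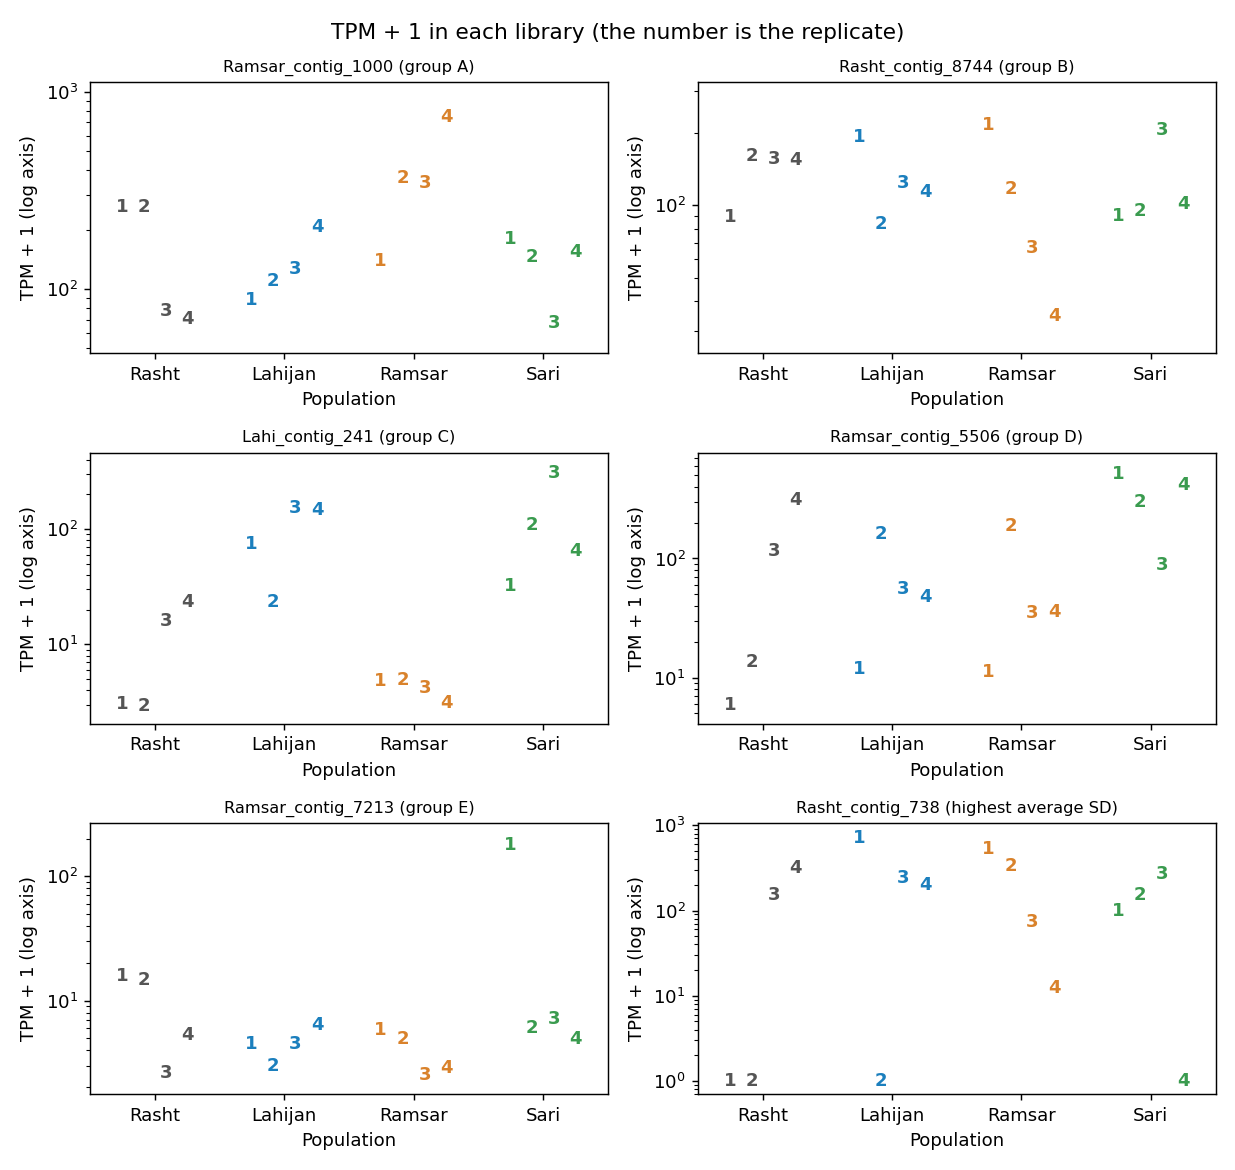
TPM + 1 on a log axis in each library for 6 variable contigs, each shown as its replicate number in the colour of its population: the contig closest to the rest of each of groups A to E, and the contig with the highest average SD. Rasht_contig_738 was listed at 0 TPM in 4 of the 16 pools and reached 701 TPM in Lahijan 1.

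Several of the most variable contigs belonged to none of the 5 groups. Rasht_contig_738 had the highest average SD of all, 3.46. It stood at 701, 0, 237 and 197 TPM in Lahijan replicates 1 to 4, at 528, 328, 73.2 and 11.3 TPM in Ramsar, at 96.7, 150, 268 and 0 TPM in Sari and at 0, 0, 152 and 312 TPM in Rasht. It was thus at 0 in some pools and above 100 TPM in others of Lahijan, Sari and Rasht. Rasht_contig_447 stood at 22.9, 0.000716, 18.2 and 0.000681 TPM in Lahijan and 14.3, 39.6, 0.000878 and 7.49 TPM in Ramsar. Sari_contig_5997, with a low ratio of counts to TPM (0.085 times the median contig), stood at 0.241, 12.2, 38.3 and 0.00769 TPM in Ramsar. These 3 contigs had fractional counts. In all, 11 of the 200 were at 0 in a pool and at 10 TPM or more in another pool of the same population. These were all such contigs among the 8357. So wide a range in 1 population alone brings the average SD close to the limit or past it, so this follows largely from the choice.

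Reads shared between contigs were common among the variable contigs, and kallisto, which the submitters name, divides such reads by estimate. Of the 200, 157 (78.5%) had a count that was not whole in at least 1 library, against 48.8% of all 8357. The part that this division had in their spread was not tested. The ratio of counts to TPM, a stand-in for length, was also low in the variable contigs, with a median of 0.38 times that of the median contig. The contig lengths themselves are not given. Their median level was 13.4 TPM, against 24.6 TPM for all, and their mean depth ran from 5.80 to 7337 estimated counts per library with a median of 118. Counting error alone would give the 200 a median SD of 0.13. The average SD was over 2 times the counting SD in 177 of the 200, against 63.4% of all 8357. It was over 3 times in 152, and the lowest ratio was 1.20. Of the identifiers, 92 carry the name of Rasht (46%, against 63.5% of all 8357), 41 that of Lahijan, 38 that of Ramsar (19%, against 8.97%) and 29 that of Sari.

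No pool held the high values of most variable contigs. Sari replicate 3 was the lowest Sari pool for 82 contigs and the highest for 68, where all 8357 contigs were lowest there in 51.8% and highest in 15.4%. Ramsar replicate 1 was the lowest Ramsar pool for 69 and the highest for 66, where all contigs were lowest there in 19.5% and highest in 46.9%. The most high values were in Lahijan replicate 4, the highest Lahijan pool for 77 of the 200 (38.5%, against 52.8% of all contigs). Together the 200 contigs held 0.88% to 1.75% of the TPM of the 12 libraries, with the least in Lahijan replicate 2 and the most in Ramsar replicate 4.

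Differences between populations were tested for all contigs in 1 edgeR quasi-likelihood model of the 16 libraries, and a contig was called where its p, adjusted by the Benjamini-Hochberg method, was under 0.05 with a log2 fold change of at least 1 in size. The 200 were chosen for a large spread between pools, which is the error term of this test, so nothing about them is read from the counts of calls. After the filter on low counts 194 of the 200 were tested. Between Lahijan and Rasht 14 were called, beside 3.32% of all 12174 contigs tested; 6 were higher in Lahijan (background 1.37%) and 8 lower (1.95%). Between Ramsar and Rasht 15 were called (background 4.04%), 5 higher (2.29%) and 10 lower (1.75%), and between Sari and Rasht 23 (8.47%), 12 higher (4.98%) and 11 lower (3.49%). These 3 comparisons share the Rasht libraries. Between Ramsar and Lahijan 31 were called (5.38%), 16 higher in Ramsar (3.43%) and 15 lower (1.95%). Between Sari and Lahijan 20 were called (5.19%), 11 higher in Sari (3.83%) and 9 lower (1.36%). Between Ramsar and Sari 11 were called (1.67%), 3 higher in Ramsar (0.698%) and 8 lower (0.969%). In all, 59 of the 194 were called in at least 1 comparison, against 14.2% of all contigs tested. Leaving out Rasht replicate 2 gave 14, 15, 28, 55, 44 and 20 calls in that order.

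Other single libraries also moved these counts by over 1.5 times. For Lahijan against Rasht there were 6 calls without Rasht replicate 1 and 4, 7, 6 and 5 without Lahijan replicates 1 to 4. For Ramsar against Rasht there were 24 when Rasht replicate 3 was left out, and 1, 4 and 3 when Ramsar replicates 2, 3 and 4 were. For Sari against Rasht there were 14, 13, 15 and 13 without Sari replicates 1 to 4. Single libraries thus moved the counts in either direction. For Ramsar against Lahijan there were 18, 19 and 15 without Lahijan replicates 1, 2 and 3 and 15, 19 and 16 without Ramsar replicates 2, 3 and 4. For Ramsar against Sari there were 7, 4, 6 and 5 when Ramsar replicates 1 to 4 were left out in turn, and leaving out Sari replicates 1 to 4 gave 7, 6, 6 and 5.

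The variable contigs described next had the largest rise or fall in a comparison, among called contigs whose libraries did not overlap. Several of them also varied widely between pools of the same population. Rasht_contig_82, of group C, stood at 0.76, 0, 23.1 and 0.33 TPM in Sari replicates 1 to 4, the highest in the pool where its group was high. It stood at 410, 145, 517 and 890 TPM in Lahijan, 184, 356, 404 and 351 TPM in Ramsar and 237, 259.5, 891 and 1888 TPM in Rasht, so no Sari pool overlapped any other. In Sari it was lower than in Rasht with a change of -7.34 ± 1.29 log2 units (± is the SE; edgeR, adjusted p = 0.0022) and lower than in Lahijan with a change of -6.46 ± 1.24 (edgeR, adjusted p = 0.0044). Ramsar against Sari gave 5.62 ± 1.20 (edgeR adjusted p = 0.020). Leaving out Sari replicate 1 or Sari replicate 4 took the last of these past the threshold (edgeR adjusted p = 0.067 and 0.065, within 0.00027 to 0.067 over its alternatives). Without Sari replicate 3, the pool with 23.1 TPM, the 3 changes were -11.4, -10.6 and 9.72 log2 units.

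Lahi_contig_241 of the same group was instead low in Ramsar, with 3.79, 3.88, 3.17 and 2.13 TPM, and its change there against Sari was -5.37 ± 0.92 log2 units (edgeR, adjusted p = 0.0044). The 4 Ramsar pools and the 4 Sari pools did not overlap. Sari_contig_469, also of group C, stood at 79.9, 85.1, 100.4 and 25.2 TPM in Ramsar, where its log2 fold change against Rasht was -3.39 ± 0.80 (edgeR adjusted p = 0.021). This call was lost without any 1 of Ramsar replicates 1, 2 and 4 (edgeR adjusted p = 0.055, 0.058 and 0.063, within 5.6e-05 to 0.063 over its alternatives).

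Lahi_contig_1360, of group B, had 0 counts in all 4 Rasht libraries. It stood at 30.6, 46.2, 39.5 and 33.4 TPM in Lahijan and 11.2, 8.85, 27.6 and 17.3 TPM in Sari, and in Ramsar at 4.43 TPM in replicate 1 and 0 in the other 3. Against a floor of 3 counts over the Rasht libraries it was at least 87.9-fold higher in Lahijan, with an adjusted p = 0.0012 by edgeR. In Sari the bound was at least 37.7-fold, with an adjusted p = 0.0033 by edgeR. For Ramsar against Lahijan, among called contigs whose libraries did not overlap, Rasht_contig_2491 had the largest rise and Lahi_contig_3092 the largest fall. Rasht_contig_2491 held 1.98 counts in all 4 Lahijan libraries together, and stood at 16.8, 1.27, 18.7 and 5.61 TPM in Ramsar and 23.5, 21.2, 11.9 and 16.8 TPM in Sari. In Rasht replicates 1, 3 and 4 it stood at 0.0996, 3.38 and 0.329 TPM, and in replicate 2 at 17.1 TPM. Most of its Rasht level, and of the ratio given next for Rasht, thus came from replicate 2, the library that stood apart. Scaled to the library totals its ratio to Lahijan was 714 in Ramsar (95% counting interval 195 to 5830; edgeR adjusted p = 0.013), 1220 in Sari (332 to 9930; edgeR adjusted p = 0.0079) and 487 in Rasht (133 to 3980; edgeR adjusted p = 0.019). Leaving out Rasht replicate 2 ended the call against Rasht (adjusted p = 0.12 by edgeR, with a change of -6.15 in place of -9.18 log2 units), as did leaving out any 1 of Lahijan replicates 1 to 4 (0.063, 0.062, 0.066 and 0.070), within 4.1e-07 to 0.12 over its alternatives. With the replicate number added to the model the call also ended (edgeR adjusted p = 0.084, in the same range).

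Lahi_contig_3092 varied between Ramsar pools, at 33.6, 1.26, 36.3 and 0.595 TPM, but stood at 1416 to 2190 TPM in Lahijan, so that Ramsar against Lahijan gave -6.79 ± 0.72 log2 units (adjusted p = 4.1e-05 by edgeR). Rasht_contig_10514 stood at 48.8, 37, 12 and 31.2 TPM in Ramsar and 2.96, 0, 10.4 and 2.47 TPM in Rasht, a change of 2.75 ± 0.74 log2 units (adjusted p = 0.035 by edgeR). Leaving out Rasht replicate 1 or 4 ended this call (adjusted p = 0.053 and 0.061 by edgeR), as did leaving out Ramsar replicates 1, 2 or 4 (0.080, 0.083 and 0.073), within 0.0015 to 0.083 over its alternatives. Adding the replicate number to the model ended it too (edgeR adjusted p = 0.082, in the same range). Between Rasht and Ramsar the closest pools of this contig were at 10.4 and 12 TPM.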

How the data were processed

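Per the labels' protocols, polyA RNA was made into stranded TruSeq libraries, and paired reads of 125 bases are given in the design text. The authors deposited an estimated count and a TPM value per contig and library. Tools listed without a role, per the submitters' processing notes, are limma 3.43.9, edgeR 3.20.9, R 3.4.4, sleuth 0.29.0, kallisto and FastQC 0.11.4. The sources used here do not give how the contigs were assembled.

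The contigs, groups and tests were chosen with earlier results of these data known. Deviations of log2(TPM + 1) (pseudocount 1) from population means were clustered by average linkage on 1 minus Pearson's r, with the tree cut at 0.4 (scipy 1.17.1). Ties for the highest or lowest pool were counted for no pool. Counts further than 0.001 from a whole number were taken as fractional. Ratios of counts to TPM, set against that of the median contig, stand in for length. Estimated counts were rounded and tested with edgeR 4.0.16 (R 4.3.3; TMM scaling, filterByExpr, robust quasi-likelihood test, 1 mean per population, all 16 libraries). The SE is the absolute log2 fold change over the square root of F. Libraries of 2 populations overlapped when their TMM-scaled log2 CPM ranges did. The test, the selection and the grouping were checked on simulated data. Counting intervals are exact (Clopper-Pearson) and cover counting error only.

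Contigs named in the text were the 8 with the highest average SD, the 3 closest to the rest of each group with at least 10 TPM, the 3 most abundant, the 2 on either side of the limit, the most negative pair, and in each comparison the largest rise and fall among called contigs without overlap. Also named, outside this rule, were Lahi_contig_6424, Lahi_contig_7501, Rasht_contig_37 and Ramsar_contig_575. Alternatives covered the pseudocount, abundance limits, unit, tree cut, correlation, scaling, filter, DESeq2 1.42.0, a replicate block and each library left out. Same-numbered libraries of different populations correlated at r = -0.35 to 0.32 in their deviations, over 0.1 in 6 of 24 pairs. In the variable contigs alone the range was wider, from -0.385 (Rasht and Ramsar replicate 4) to 0.47 (Lahijan and Ramsar replicate 1). As both signs occurred, the replicate numbers were not taken to pair the pools. A link between single same-numbered pools, such as Lahijan and Ramsar replicate 1, was not tested.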

Additional observations from a re-analysis of the deposited data

Results flagged for a closer look

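The contigs named by the rule above and the 5 group means were examined in each population, on the log2 scale. Lahi_contig_6424, Lahi_contig_7501, Rasht_contig_37 and Ramsar_contig_575, named outside that rule, were not examined. Of 152 sets of 4 pools, 13 had a pool far from the other 3 by Dixon's criterion. This is 8.55%, where chance flags about 1 in 20, and contigs chosen for a large spread are not a chance sample.

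In Sari replicate 1, group E had a mean deviation of 2.62 (other Sari pools -0.98 to -0.81). Its contigs Ramsar_contig_7213, Ramsar_contig_12226 and Sari_contig_4366 stood there at 176, 228 and 210 TPM, above 3.87 to 6.06, 5.81 to 9.84 and 23 to 27.4 TPM in the other Sari pools.

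In Sari replicate 3, group B had a mean deviation of 0.71 (others -0.24 to -0.22), and Rasht_contig_8744 of that group stood at 206 TPM (others 89.6 to 101). In the same pool Ramsar_contig_349 of group A was low, at 71.2 TPM (others 574 to 787), and Sari_contig_9228, just outside the 200, at 16.3 TPM (others 40.7 to 47.6).

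The remaining flags were single contigs in single pools. Rasht_contig_8744 was low in Rasht replicate 1, at 88.8 TPM (others 154 to 159). Sari_contig_469 was low in Ramsar replicate 4, at 25.2 TPM (others 79.9 to 100.4), and Sari_contig_9228 high in Lahijan replicate 3, at 8.41 TPM (others 3.59 to 3.76). Lahi_contig_1360 stood at 4.43 TPM in Ramsar replicate 1 and was listed at 0 in the other Ramsar pools, and Lahi_contig_3092 stood at 3.99 TPM in Rasht replicate 2 (others 9.2 to 9.65).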

How the results depend on the processing

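Of the 200 contigs, 154 or more were also chosen with a pseudocount of 0.1 or 5, with log2 CPM, by edgeR dispersion, by the median of the 3 SDs or with the abundant contigs kept in, 138 by the lowest of the 3 SDs, and 169 to 188 with a library left out; with a limit of 1 or 10 TPM in place of 5, 90 and 122 were shared. The count in the top 10% of Rasht was 82 with all 4 Rasht libraries and 105 to 132 with 1 of replicates 1, 3 and 4 left out. Group A had 25 contigs with the tree cut at 0.3, and the largest group had 28 to 42 with a library left out. In a check chosen after seeing the data, the contigs of a group that still fell in one cluster with a library left out numbered 26 to 40 for A (26 without Ramsar replicate 1), 12 to 16 for B, 13 to 15 for C, 7 to 12 for D (7 without Lahijan replicate 2) and 3 to 6 for E (3 without Sari replicate 1). Counts of called contigs moved most. The replicate block gave 5, 6 and 15 for Lahijan, Ramsar and Sari against Rasht; for 3 of 16 libraries the closest library of another population had the same number. Under the block the calls of Rasht_contig_10514 for Ramsar against Rasht and of Rasht_contig_2491 for Lahijan against Rasht also ended (edgeR adjusted p = 0.082 and 0.084, with ranges over the alternatives of 0.0015 to 0.083 and 4.1e-07 to 0.12). DESeq2 gave 30 and 39 for Ramsar and Sari against Rasht, 48 and 33 for Ramsar and Sari against Lahijan, and 23 for Ramsar against Sari, and no filter gave 9 for Ramsar against Rasht. With a library left out, the counts were 4 to 14 (Lahijan against Rasht), 1 to 24 (Ramsar against Rasht), 13 to 29 (Sari against Rasht), 15 to 55 (Ramsar against Lahijan), 15 to 44 (Sari against Lahijan) and 4 to 20 (Ramsar against Sari). Among the named contigs, only those with a change between populations given above were followed in the alternatives, and none of these changes turned direction. The cause of these shifts was not tested.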
